A study of Homo sapiens with 15 samples.

Results

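The genes described here are 47 genes of mitosis, the kinetochore and condensin, out of 58395 genes in the count table. They were listed by symbol, without a cutoff on a measured value. The list was chosen with earlier results of these data known, so counts of members below may not be independent of those results. Each symbol was matched to its Ensembl gene through GENCODE 29. RNA was sequenced from H1299, a long-established human cell line from a non-small cell lung cancer, after 12 h in RPMI 1640 without serum. The 5 media held neither glucose nor glutamine, 5 mM glucose, 4 mM glutamine, both nutrients at those concentrations, or 5 mM glucose with 4 mM NH4Cl, with 3 libraries each and 15 in all. NH4Cl was thus measured on a background of glucose without glutamine only, and no other medium held it. The labels name no antibody sort, genotype change or synchronization, and every medium lacked serum. They call the cells triplicates without saying whether these were separate cultures or days, so every p-value measures the spread between these libraries, which may be technical.

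Entry into mitosis is driven by CDK1 bound to cyclin A or cyclin B, and the transcription factor FOXM1 and the MuvB complexes raise many of the genes needed there in late interphase. Kinetochores assembled on the centromere bind spindle microtubules, while the spindle checkpoint holds back the anaphase promoting complex until all chromosomes are attached. Condensin and topoisomerase II shape the chromosomes, and the chromosomal passenger complex, central spindle and contractile ring then part the daughter cells. Transcripts of most of these genes peak in late interphase and mitosis in dividing cells, so in a bulk sample their sum follows both how many cells are in those phases and how much RNA each holds.

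Library totals ran from 14914127 to 19938691 counts, so that a count of 3 corresponded to between 0.150 and 0.237 CPM (counts scaled to a common library size) and all 47 members passed the filter on low counts. Levels below are CPM after TMM scaling, which corrects for a few abundant genes taking up reads. The scaling factors were 0.793 to 0.794 in the libraries with neither nutrient and 1.01 to 1.09 in the other 12, so levels in the medium with neither nutrient depend on the scaling more than the others do. Library 1 of glucose and library 3 of both nutrients had 35114 and 33716 genes detected against 24219 to 28337 in the other 13. The summed level of KRT8, KRT18 and VIM, markers of the line, was 2264 to 2333 CPM in glucose, 2299 to 2315 with NH4Cl, 2650 to 2761 with both nutrients, 3145 to 3192 in glutamine and 3845 to 3889 with neither. That sum is mostly VIM, and KRT8 alone was 154 to 164 CPM in glucose and 172 to 184 CPM with NH4Cl, without overlap. Lung alveolar markers summed to 0 to 0.694 CPM over all libraries and fibroblast markers to 1.02 to 2.99 CPM. Endothelial markers, mostly ENG, summed to 11.02 to 12.6 CPM in glucose, 10.2 to 13.7 with NH4Cl and 16.3 to 18.0 with both nutrients. Leukocyte markers, mostly CORO1A, summed to 1.70 to 2.07 CPM in glucose, 1.97 to 2.42 with NH4Cl and 5.01 to 7.91 in the other media. No listed marker was at 0 in every library, and the part of these shifts in the results was not tested.

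**Figure D1:**
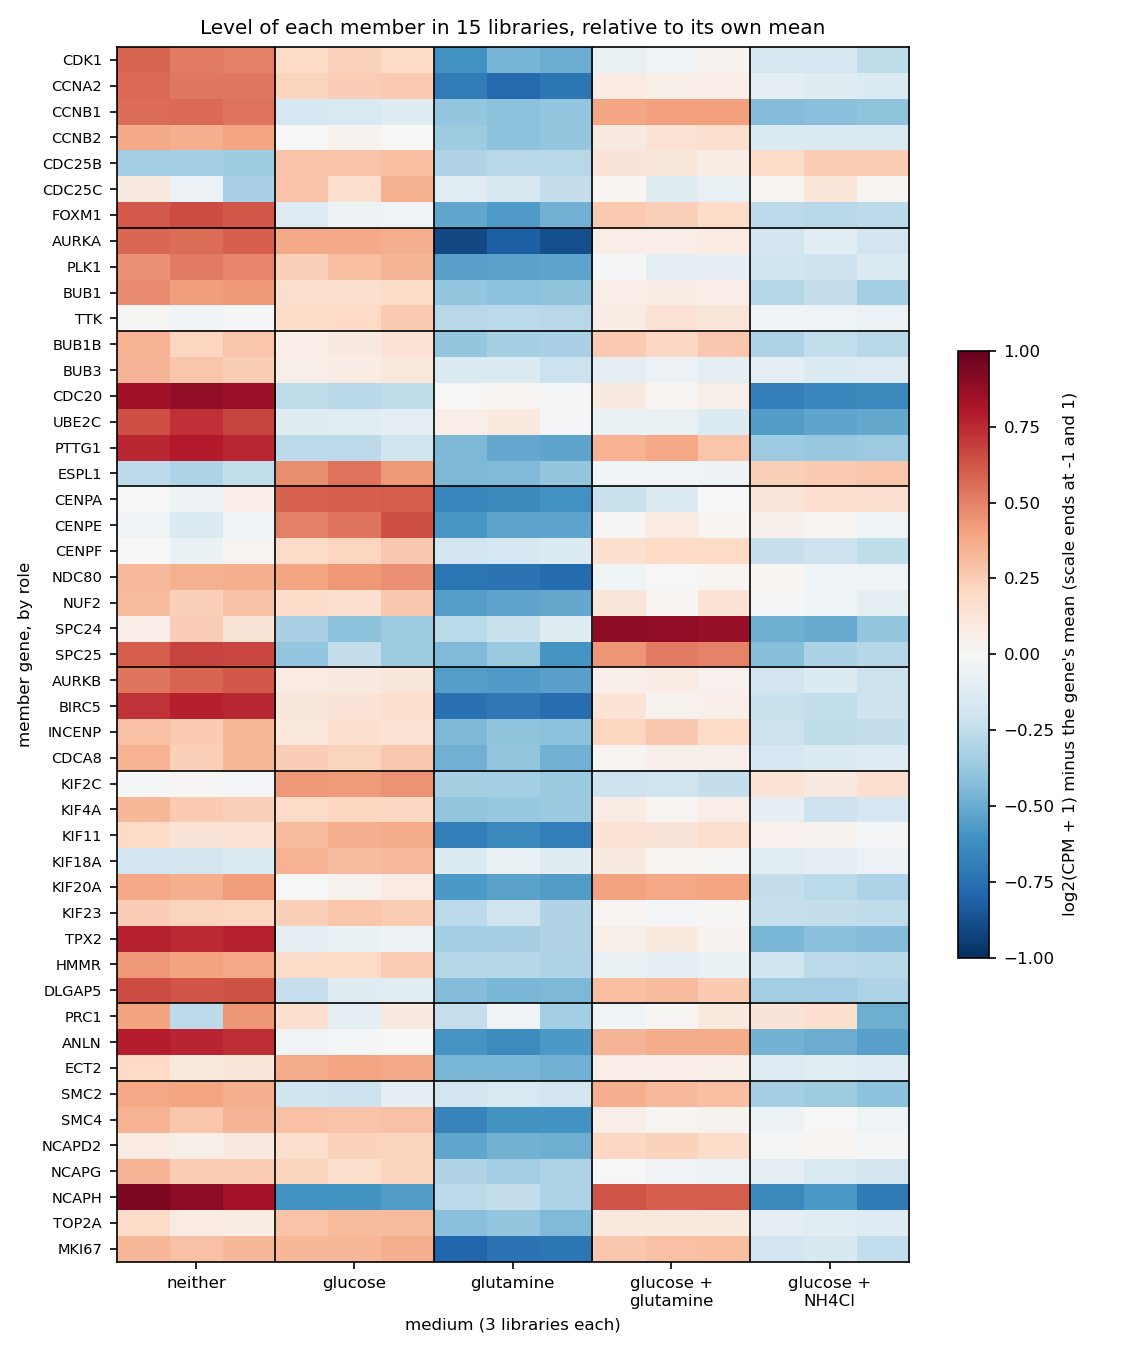
Level of each of the 47 members (vertical axis, grouped by role) in the 15 libraries (horizontal axis, 3 per medium), as log2(CPM + 1) minus the gene's own mean, from blue (below it) to red (above it). Of the 47 members, 37 had their lowest mean level with glutamine alone and 8 with glucose plus NH4Cl.

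The members were abundant in every medium, with PRC1 far below the rest. In glucose their level per kilobase of exon had a median of 46.1 CPM per kb, from 0.363 ± 0.0509 for PRC1, 7.82 ± 0.237 for SPC24 and 10.8 ± 0.211 for NCAPH to 122 ± 1.00 for CDC20, 130.1 ± 2.64 for NCAPD2 and 176 ± 2.63 for TPX2 (SD, n = 3). Summed over the members, the level was 12260 ± 111 CPM with neither nutrient, 10570 ± 145 in glucose, 10290 ± 36.1 with both nutrients, 8283 ± 60.9 in glucose with NH4Cl and 7024 ± 37.6 in glutamine (SD, n = 3). The place of neither nutrient at the top of this order depends on the TMM scaling. The sums did not overlap between NH4Cl, at 8215 to 8332 CPM, and glucose, at 10430 to 10720 CPM. By gene, the highest mean was with neither nutrient for 29 members, in glucose for 16 and with both nutrients for 2. When library totals alone set the scale, those numbers became 5, 28 and 14, whereas the lowest mean was still in glutamine for 34 and with NH4Cl for 6.

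NH4Cl added to glucose lowered the level of most members, each by at most 31.8%, and raised none. Of the 47 members, 42 fell at an adjusted p under 0.05 by edgeR's quasi-likelihood test, 0 rose and 5 did not pass. Among all 16889 genes tested, 29.6% passed, 16.9% as lower and 12.7% as higher. The median log2 change was -0.36 over the members and -0.01 over all genes, and 46 of 47 members lay below the latter. Tested against a change of at least 1.2-fold, 27 members fell, beside 1.28% of all genes. The 3 libraries with NH4Cl did not overlap the 3 with glucose for 43 members, all of them lower, beside 22.3% of all genes lower without overlap. No member reached a 2-fold change. In bulk RNA, fewer cells in mitosis and less RNA of these genes per cell cannot be told apart. The share of counts from mitochondrial genes was 0.849 to 0.867% in glucose and 1.05 to 1.07% with NH4Cl, and its part in these changes was not tested.

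Among the genes of mitotic entry and their transcription, 6 of 7 fell. CDK1, the kinase that starts mitosis, stood at 179, 182 and 178 CPM in glucose and at 138, 138 and 130.3 CPM with NH4Cl. It fell by 24.5% (log2 change -0.41, SE 0.03, adjusted p = 5.73e-26), the most in this group. CCNB1, which encodes its partner cyclin B1, stood at 286, 290 and 296 CPM in glucose and at 238, 241.5 and 244 CPM with NH4Cl, a fall of 17.0% (log2 change -0.27, SE 0.0233, adjusted p = 1.10e-21). For FOXM1, the transcription factor, the libraries read 217, 229 and 232 CPM in glucose and 198, 196 and 199 CPM with NH4Cl. Each of these genes had its 3 NH4Cl libraries below its 3 glucose libraries, although FOXM1 fell by a smaller 12.6% (log2 change -0.19, SE 0.0261, adjusted p = 9.42e-11). CCNA2 (cyclin A2) fell by 0.36 and CCNB2 (cyclin B2) by 0.15 on the log2 scale. The phosphatase gene CDC25C fell by 0.22 (SE 0.0619, adjusted p = 0.0065), a call that was lost without glucose replicate 3 (adjusted p = 0.0519), without the 3 libraries with the most genes detected (adjusted p = 0.106), and with the DESeq2 Wald test (adjusted p = 0.0577). CDC25B, the related phosphatase that acts early, had a log2 change of -0.06 (SE 0.0246, adjusted p = 0.067), and its groups did not overlap.

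All 4 mitotic kinases fell. AURKA (chromosome 20, 56369389 to 56392337, GRCh38), the centrosomal and spindle pole kinase, read 288, 288 and 285 CPM in glucose against 195, 204 and 195 CPM with NH4Cl. PLK1, which acts from mitotic entry to cytokinesis, read 234, 244 and 250.3 CPM against 173, 172 and 180.2 CPM. The libraries of the 2 media were thus well apart for both genes. AURKA fell by 31.0% (log2 change -0.54, SE 0.0254, adjusted p = 2.33e-48) and PLK1 by 27.9% (log2 change -0.47, SE 0.0271, adjusted p = 2.15e-38). BUB1, a checkpoint kinase at the kinetochore, fell by 0.46 (SE 0.0253, adjusted p = 1.07e-40) and TTK, which starts the checkpoint signal, by 0.26 (SE 0.0284, adjusted p = 3.50e-15).

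The 6 genes of the checkpoint, the anaphase promoting complex and separase also fell, by unequal amounts. UBE2C, the ubiquitin-conjugating enzyme that works with the anaphase promoting complex, read 147, 147 and 149.7 CPM in glucose and 108, 110.4 and 112 CPM with NH4Cl. BUB3, a checkpoint protein that docks at kinetochores, read 194, 196 and 201 CPM in glucose and 175, 170 and 171 CPM with NH4Cl. Neither pair of groups overlapped. UBE2C fell by 25.7% (log2 change -0.43, SE 0.0306, adjusted p = 1.31e-28), the most in this group, and BUB3 by 12.8% (log2 change -0.20, SE 0.0277, adjusted p = 4.35e-10). The smallest fall here was that of PTTG1, which encodes securin, the inhibitor of separase, at 0.13 on the log2 scale (SE 0.0317, adjusted p = 0.000717). Its call was lost when no low-count filter was applied.

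Centromere and kinetochore genes held both the largest and the smallest change of the 47, with 5 of 7 lower. CENPE (chromosome 4, 103105806 to 103198409), the kinetochore motor that carries chromosomes to the spindle equator, read 189, 193 and 207 CPM in glucose and 138, 135 and 129 CPM with NH4Cl. SPC25 (chromosome 2, 168834132 to 168913371), a subunit of the NDC80 complex that grips microtubules, read 23.0, 25.6 and 23.5 CPM in glucose and 22.45, 24.3 and 24.8 CPM with NH4Cl. CENPE was lower in every NH4Cl library, whereas the SPC25 groups overlapped. CENPE fell by 31.8% (log2 change -0.55, SE 0.03, adjusted p = 3.32e-38). The log2 change of SPC25 was -0.01 (SE 0.0624, adjusted p = 0.925), and that of SPC24, a subunit of the same complex, was -0.10 (SE 0.0648, adjusted p = 0.262). The other subunits of that complex, NDC80 and NUF2, fell by 0.45 and 0.26 on the log2 scale. CENPA, the centromeric histone H3 variant, and CENPF, a large outer kinetochore protein, fell by 0.45 and 0.46.

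The 4 chromosomal passenger genes fell within a narrow range. CDCA8, which encodes borealin, fell by 0.40 on the log2 scale (SE 0.0305, adjusted p = 9.59e-26). INCENP, the scaffold, and BIRC5, which encodes survivin, fell by 0.38 and 0.37. The kinase AURKB fell by 0.28 (SE 0.0314, adjusted p = 2.24e-14). All 9 genes of spindle motors and spindle assembly fell too, from KIF23, a motor of the central spindle, by 0.50 (SE 0.0283, adjusted p = 1.04e-38) to DLGAP5, a microtubule-binding protein of the spindle, by 0.19 (SE 0.0329, adjusted p = 7.35e-07). TPX2, which activates AURKA on the spindle, fell by 0.37, and KIF2C, which takes microtubules apart at kinetochores, by 0.31.

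In cytokinesis, ECT2, which activates RhoA at the division site, fell by 0.51 (SE 0.0236, adjusted p = 2.39e-49) and ANLN, which encodes the ring scaffold anillin, by 0.49 (SE 0.0239, adjusted p = 3.86e-46). PRC1, which bundles central spindle microtubules, had a log2 change of -0.14 (SE 0.228, adjusted p = 0.719) at 17 to 42 counts per library. Its log2 change was 0.13 without NH4Cl replicate 3, so its direction rested on that library. Of the condensin, topoisomerase and chromosome surface genes, 6 of 7 fell. MKI67 (chromosome 10, 128096659 to 128126385), whose protein Ki-67 coats mitotic chromosomes and is a common proliferation marker, read 491, 492 and 501 CPM in glucose and 342, 348 and 328.5 CPM with NH4Cl. TOP2A, topoisomerase II alpha, read 564, 577.3 and 577.5 CPM in glucose and 433, 429 and 423 CPM with NH4Cl. NCAPH (chromosome 2, 96335787 to 96373845), the kleisin subunit of condensin I, read 35.0, 35.2 and 36.3 CPM in glucose and 34.1, 35.9 and 32.7 CPM with NH4Cl. MKI67 and TOP2A were lower in every NH4Cl library and the NCAPH groups overlapped. MKI67 fell by 31.3% (log2 change -0.54, SE 0.0219, adjusted p = 1.13e-57) and TOP2A by 25.2% (log2 change -0.42, SE 0.0213, adjusted p = 2.12e-43). NCAPH had a log2 change of -0.05 (SE 0.0506, adjusted p = 0.516). The condensin core subunits SMC2 and SMC4 fell by 0.20 and 0.32, the condensin I subunit NCAPG fell by 0.35, and NCAPD2, another subunit of condensin I, by 0.21.

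**Figure D2:**
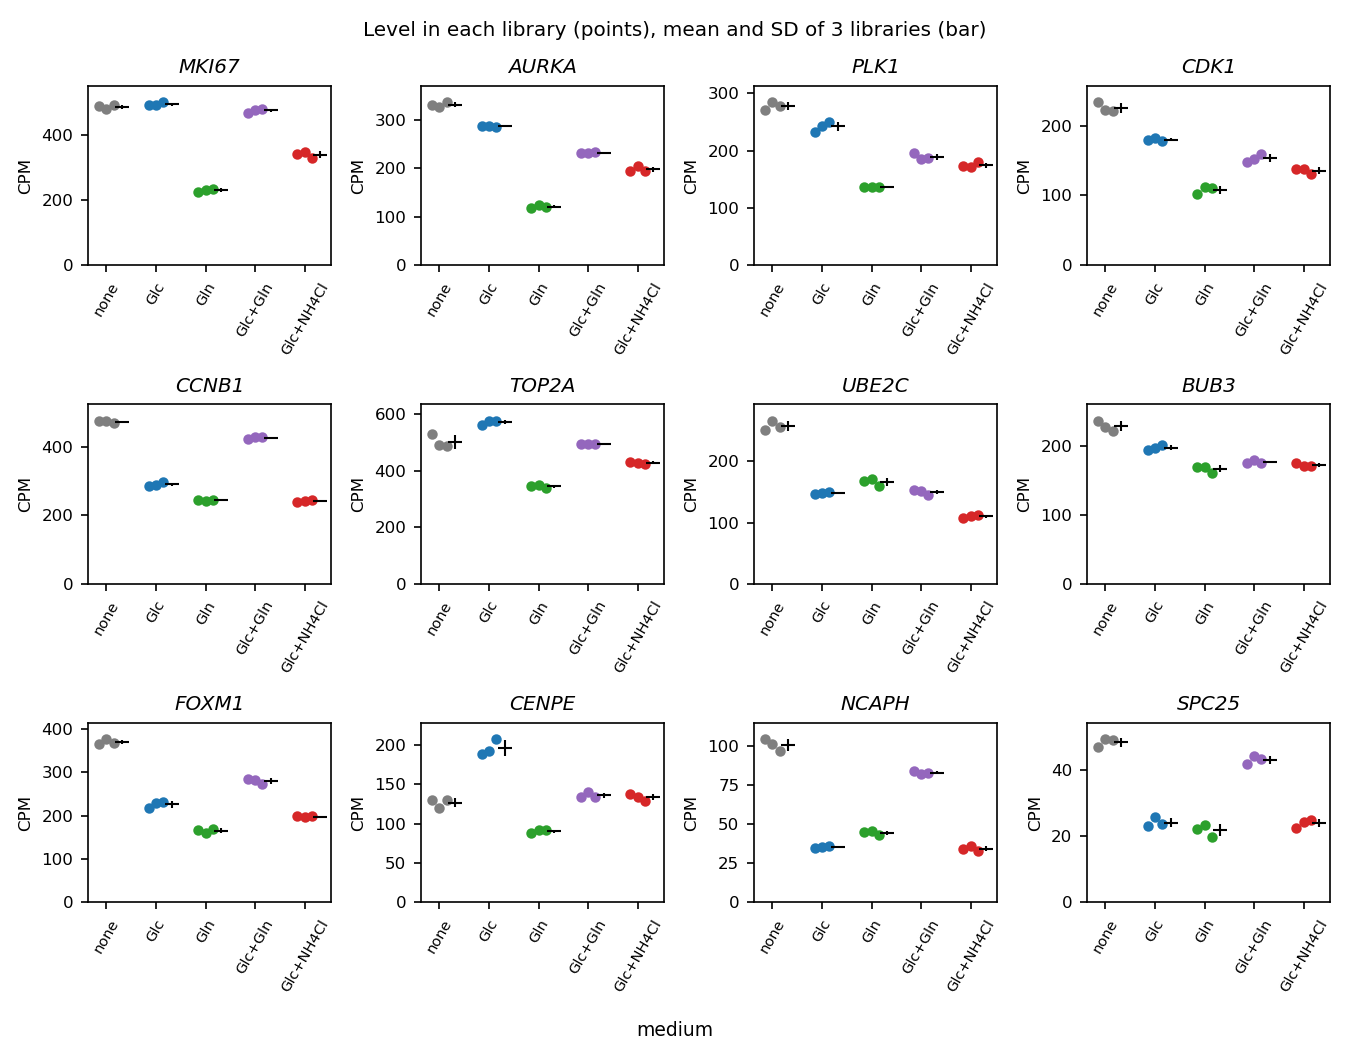
Level in CPM (vertical axis, from 0) of 12 members in each library, by medium (horizontal axis: none, neither nutrient; Glc, glucose; Gln, glutamine); points are the 3 libraries, and the black mark beside them is their mean with a bar of 1 SD. The red NH4Cl points lie below the blue glucose points for 10 of these genes and overlap them for NCAPH and SPC25.

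The promoters of the members are shown for a pair of motifs that recur in genes of late interphase and mitosis. The members were listed as such genes, so the shares below describe the list and do not measure the change with NH4Cl. These are the cell cycle genes homology region (CHR), searched as TTTGAA or TTTAAA, and the CCAAT box, searched as CCAAT, both on either strand. RefSeq windows (GRCh38.p14) from 250 bases before to 50 bases after the gene start were at hand for 40 members. No window was at hand for FOXM1, AURKA, TTK, BUB3, UBE2C, BIRC5 and TPX2. A CHR match was found in 34 of the 40 windows (85%), against 1821 of the 11593 windows of genes tested (15.7%). At least 1 CCAAT box was found in 29 (72.5%), against 36.5% of all windows, and both motifs in 62.5%, against 6.42%. The median log2 change with NH4Cl was -0.37 over the 34 members with a CHR match and -0.25 over the 6 with no such match. The values of the 2 sets overlapped, and the difference was not tested. A CHR with other letters or outside the window was not searched, so those 6 may still hold one. SPC25, with the smallest change, held a CHR match as well. The 120 bases just before the RefSeq start follow for the 5 members with the largest falls among those with a window, read 5′ to 3′ on the gene's strand, with CHR and CCAAT matches of either strand in capitals.
CENPE (chr4:103198344-103198463, minus strand): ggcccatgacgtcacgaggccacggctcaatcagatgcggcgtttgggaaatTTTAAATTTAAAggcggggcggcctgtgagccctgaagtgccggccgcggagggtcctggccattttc
MKI67 (chr10:128126424-128126543, minus strand): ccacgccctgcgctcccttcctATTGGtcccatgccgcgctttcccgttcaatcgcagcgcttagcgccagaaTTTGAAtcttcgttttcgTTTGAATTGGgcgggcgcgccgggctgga
ECT2 (chr3:172750606-172750725, plus strand): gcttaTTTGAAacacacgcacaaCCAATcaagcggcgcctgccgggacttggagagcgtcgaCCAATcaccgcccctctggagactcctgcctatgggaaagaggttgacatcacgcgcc
KIF23 (chr15:69414229-69414348, plus strand): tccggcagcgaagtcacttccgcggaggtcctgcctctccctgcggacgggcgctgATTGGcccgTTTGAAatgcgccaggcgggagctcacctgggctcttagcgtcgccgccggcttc
ANLN (chr7:36389742-36389861, plus strand): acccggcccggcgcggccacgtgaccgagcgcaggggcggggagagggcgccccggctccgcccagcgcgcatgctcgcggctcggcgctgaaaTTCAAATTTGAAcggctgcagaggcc

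In these stretches CENPE and ANLN held 2 adjoining CHR matches each and no CCAAT box. The ECT2 stretch held 1 CHR match and 2 CCAAT boxes, KIF23 1 of each, and MKI67 2 of each, of which 1 CHR match overlapped 1 CCAAT box. A match is a run of letters in the window and was not tested as a binding site.

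Other lists of cell cycle genes were read in the same comparison with NH4Cl, in which 16.9% of all genes were lower and 12.7% higher. These lists, too, were chosen with earlier results of these data known. Of 31 other spindle, kinase and cytokinesis genes, 29 fell and 0 rose, with a median log2 change of -0.27 and with ARHGAP11A at -0.50 and DEPDC1 at -0.52. Of 32 other centromere, kinetochore and checkpoint genes, 11 fell, among them the CENPA chaperone HJURP at -0.46 and the kinetochore scaffold KNL1 at -0.41, and the median was -0.09. Of 19 cohesin and condensin II genes, 10 fell, with a median of -0.10 and with SGO2, which protects centromeric cohesin, at -0.41 and STAG1, a cohesin subunit, at -0.33. Among 17 subunits and regulators of the anaphase promoting complex, 6 fell and 3 rose, with its inhibitor FBXO5 at -0.44, CDC27 at -0.32, ANAPC2 at 0.18 and ANAPC13 at 0.12. Of 24 DNA replication genes, 5 fell and 3 rose (6 rose with library totals alone), shares near those of all genes, and their median was 0.01. CDC45 and POLA1 changed by -0.23 and -0.14, and CDT1 and RFC4 by 0.23 and 0.14. The difference between these lists was not tested.

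**Figure D3:**
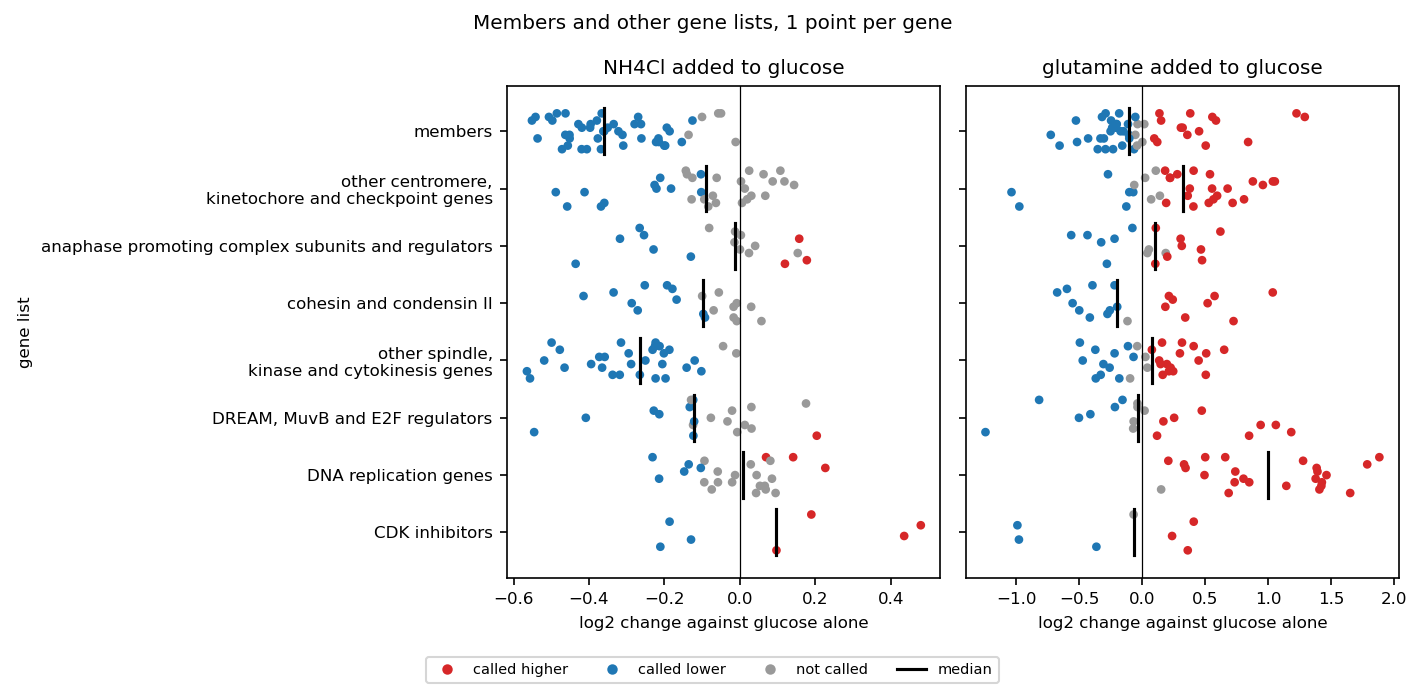
Log2 change against glucose alone (horizontal axes) of the 47 members and of 7 other lists (vertical axis), with NH4Cl added (left) and with glutamine added (right); 1 point per gene, red called higher, blue called lower, grey not called, black line the median. With NH4Cl the median was -0.36 for the members and 0.01 for the DNA replication genes.

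Glutamine added to glucose moved the members both ways, with large rises in a few genes and many smaller falls. Of the 47, 15 rose, 27 fell and 5 did not pass by edgeR's quasi-likelihood test, beside 67.9% of all genes passing (34.2% higher, 33.7% lower). The members' median log2 change was -0.11, against 0.00 for all genes. Against a 1.2-fold change 11 rose and 8 fell, beside 22.6% and 21.3% of all genes. The share of members that rose in either test, and the share that fell against 1.2-fold, were near those of all genes. SPC24 read 22.85, 21.5 and 22.3 CPM in glucose and 54.6, 54.5 and 53.8 CPM with both nutrients, and NCAPH, given above for glucose, read 84.0, 82.2 and 82.4 CPM with both nutrients. SPC25 read 41.7, 44.05 and 43.3 CPM with both nutrients. All 3 genes were higher in each library with glutamine than in any with glucose alone, and they are among the members that did not pass in the comparison with NH4Cl. SPC24 rose 2.44-fold (log2 change 1.29, SE 0.0535, adjusted p = 2.48e-57), NCAPH 2.33-fold (log2 change 1.22, SE 0.0424, adjusted p = 1.83e-68) and SPC25 1.79-fold (log2 change 0.84, SE 0.0551, adjusted p = 2.14e-33). The other 12 that rose were PTTG1 by 0.58, CCNB1 by 0.56, SMC2 by 0.50, DLGAP5 by 0.45, ANLN by 0.38, KIF20A by 0.36, CDC20 by 0.32, FOXM1 by 0.31, BUB1B by 0.15, TPX2 by 0.14, CCNB2 by 0.12 and INCENP by 0.09 on the log2 scale. The INCENP call was lost without replicate 2 of both nutrients (adjusted p = 0.0516).

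The largest falls with glutamine were those of CENPA, KIF2C and CENPE. CENPA read 84.9, 85.4 and 85.9 CPM in glucose and 48.0, 50.6 and 55.9 CPM with both nutrients, a fall of 39.6% (log2 change -0.73, SE 0.0399, adjusted p = 6.19e-42). KIF2C fell by 36.6% (log2 change -0.66, SE 0.025, adjusted p = 1.16e-62) and CENPE by 30.6% (log2 change -0.53, SE 0.0297, adjusted p = 5.91e-38). The 4 mitotic kinases all fell, by 0.10 for TTK to 0.35 for PLK1. UBE2C (0.02), CENPF (-0.04), AURKB (-0.04), PRC1 (-0.06) and NCAPD2 (0.00) did not pass, and CENPF passed as lower under 4 other settings or without glucose replicate 1 (adjusted p = 0.0336). The log2 change of MKI67 was -0.06 (adjusted p = 0.0145), a call lost without glucose replicate 3 (adjusted p = 0.0789), without replicate 1 of both nutrients (adjusted p = 0.0992) and with no low-count filter, whereas with NH4Cl its change was -0.54. Both comparisons use the same glucose libraries.

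**Figure D4:**
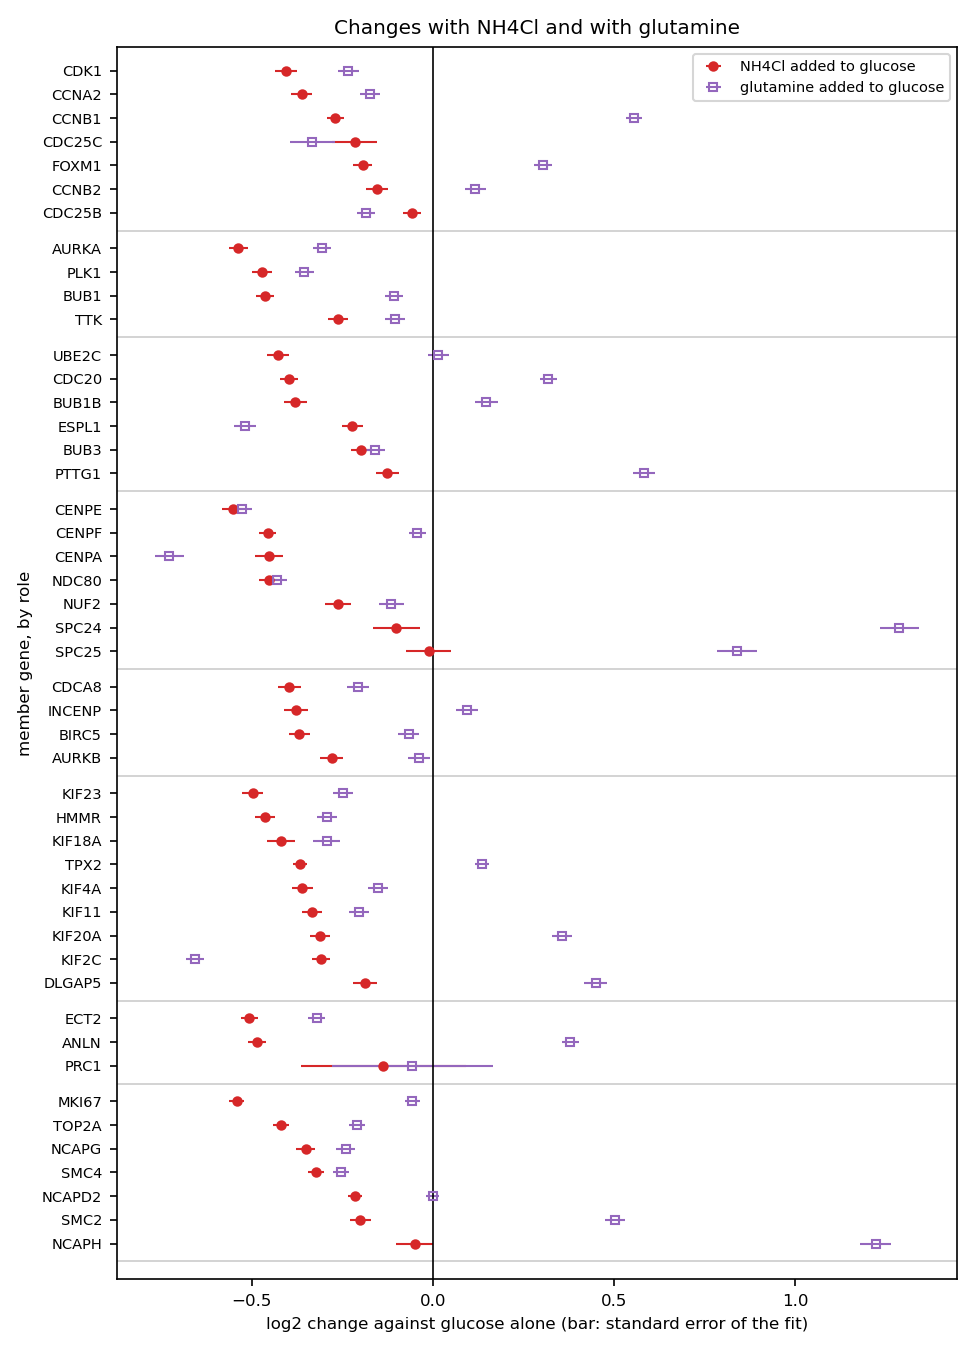
Log2 change of each member (vertical axis, by role, grey lines between roles) against glucose alone (horizontal axis), with NH4Cl added (red circles) and with glutamine added (purple squares); bars are the standard error of the fit. The circles run from -0.55 to -0.01, while the squares run from -0.73 for CENPA to 1.29 for SPC24.

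The libraries with NH4Cl and with glutamine, both in glucose, were set against each other directly, which tests whether the changes with these additions differ. The level was lower with NH4Cl for 38 members, higher for 4 and not called for 5, beside 64.6% of all genes called (33.4% lower, 31.2% higher). The median log2 difference was -0.21 for the members and -0.01 for all genes. Against a 1.2-fold change, 18 were lower and 1 was higher, beside 20% and 18% of all genes. The largest differences were those of SPC24 at -1.39 (SE 0.0548, adjusted p = 3.50e-60), NCAPH at -1.27 (SE 0.0432, adjusted p = 9.57e-70) and ANLN at -0.86 (SE 0.0235, adjusted p = 1.87e-84). KIF2C at 0.35, ESPL1, which encodes separase, at 0.30, CENPA at 0.28 and CDC25B at 0.13 were higher with NH4Cl than with glutamine. MKI67 was lower by 28.6% (log2 difference -0.49, SE 0.0219, adjusted p = 2.34e-52). For CENPE the difference was -0.02 (SE 0.0311, adjusted p = 0.517) and for NDC80 -0.02 (SE 0.0282, adjusted p = 0.538). Their libraries with NH4Cl and with glutamine overlapped, and both genes were lower in each addition than in glucose alone. BUB3 (-0.04), CDC25C (0.12) and PRC1 (-0.08) did not pass either, although CDC25C was called higher without replicate 1 (adjusted p = 0.0451) or replicate 3 (adjusted p = 0.0427) of neither nutrient. Without NH4Cl replicate 3, the log2 difference of PRC1 was 0.18.

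Glucose added to glutamine raised nearly all members. Of the 47, 44 rose, 1 fell and 2 did not pass, beside 65.6% of all genes called (32.6% higher, 33% lower). The median log2 change was 0.53 for the members and -0.01 for all genes, and 37 members rose by the test against 1.2-fold, beside 19.6% of all genes. MKI67 read 225, 233 and 235 CPM in glutamine and 469, 478 and 480.1 CPM with both nutrients, and SPC24 read 23.9, 24.7 and 26.5 CPM in glutamine. In each of these genes the libraries were far apart between the media. SPC24 rose 2.17-fold (log2 change 1.12, SE 0.0521, adjusted p = 1.98e-50), MKI67 2.06-fold (log2 change 1.04, SE 0.0225, adjusted p = 5.80e-101) and SPC25 1.97-fold (log2 change 0.98, SE 0.056, adjusted p = 1.59e-39). UBE2C, at 167, 171 and 159 CPM in glutamine and 152, 151 and 145 CPM with both nutrients, fell by 9.75% (log2 change -0.15, SE 0.0289, adjusted p = 2.07e-06). When library totals alone set the scale, 0 members fell in this comparison. CDC25C (0.12) and PRC1 (0.34) did not pass.

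Against the medium with neither nutrient, glutamine alone went with lower levels of 44 members, higher of 1 and no call for 2 under TMM, and with 38 lower and 6 higher when library totals alone set the scale. Of all genes, 72.8% were called under TMM, 35.8% as lower and 37% as higher. The median log2 change was -0.76 over the members and 0.02 over all genes. At least 2-fold falls were called under TMM for 15 members, beside 1057 of all 16889 genes, and for 3 members with library totals alone. Counts of all genes called at any size with library totals alone are given with the other processing choices below. Falls of at least 2-fold among all genes were not counted on that scale. With library totals alone the median of all genes moved by 0.34, yet the members stayed 0.78 to 0.79 below it. AURKA read 330.4, 326 and 336 CPM with neither nutrient and 118, 125 and 120.1 CPM in glutamine. Its level fell by 63.4% (log2 change -1.45, SE 0.0269, adjusted p = 3.93e-112). BIRC5 fell by 64.6% (log2 change -1.50, SE 0.0295, adjusted p = 6.77e-108) and ANLN by 61.2% (log2 change -1.37, SE 0.0236, adjusted p = 2.26e-117). CDC25B was the 1 member called higher, by 0.06 (SE 0.0269, adjusted p = 0.0455), and 0 were called higher when any 1 of the 15 libraries was left out. PRC1, lower by 0.65, lost its call without replicate 1 (adjusted p = 0.102) or 3 (adjusted p = 0.0976) of neither nutrient or replicate 3 of glutamine (adjusted p = 0.0559). CDC25C (-0.09) and KIF18A (0.07), a motor that damps chromosome movements, did not pass. CDC25C was called lower, at -0.19, without replicate 3 of neither nutrient (adjusted p = 0.00467).

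Glucose alone against neither nutrient divided the members, and the division depends on the scale. Under TMM, 28 were lower, 14 higher and 5 not called, with a median log2 change of -0.20, whereas with library totals alone 12 were lower and 32 higher, with a median of 0.24. Of all genes, 77.8% were called under TMM, 37.9% as lower and 39.9% as higher, and their median moved from 0.05 to 0.49 between those scales. Relative to the median of all genes, 33 members lay below and 14 above on either scale, and the members' median lay 0.25 lower. NCAPH read 104, 101 and 96.6 CPM with neither nutrient, CDC20, the activator of the anaphase promoting complex, read 537, 553 and 546 CPM, and PTTG1 read 234, 240.4 and 234 CPM. In glucose CDC20 read 251, 247 and 250.5 CPM and PTTG1 115, 115 and 119.8 CPM. NCAPH fell by 64.8% (log2 change -1.51, SE 0.0427, adjusted p = 3.63e-82), CDC20 by 54.3% (log2 change -1.13, SE 0.0232, adjusted p = 4.99e-105) and PTTG1 by 50.6% (log2 change -1.02, SE 0.0296, adjusted p = 1.55e-80). The log2 changes with library totals alone were -1.07 for NCAPH, -0.69 for CDC20 and -0.58 for PTTG1. The 14 that were higher under TMM, each by 0.44 more with library totals alone, were ESPL1 by 0.76, CDC25B by 0.64, CENPE by 0.63, CENPA by 0.60, KIF18A by 0.51, KIF2C by 0.45, CDC25C by 0.36, ECT2 by 0.24, CENPF by 0.24, TTK by 0.22, TOP2A by 0.19, KIF11 by 0.19, NCAPD2 by 0.13 and NDC80 by 0.08. The NDC80 call was lost without replicate 1 of neither nutrient (adjusted p = 0.066) or glucose replicate 3 (adjusted p = 0.0557). CDCA8 (-0.06), KIF23 (0.03), SMC4 (-0.03), MKI67 (0.02) and PRC1 (-0.25) were not called. Without replicate 2 of neither nutrient, CDCA8 at -0.10, SMC4 at -0.06 and PRC1 at -0.52 were called lower, with adjusted p of 0.00508, 0.0149 and 0.0415. The CDCA8 call was also made when several other single libraries were left out.

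The change with glutamine in the presence of glucose differed from that in its absence for 44 members by the interaction term of the same fit. The difference was positive for 39 and negative for 5, beside 74.8% of all genes called (36.8% positive, 38% negative). Its median was 0.69 for the members and -0.03 for all genes, and with library totals alone it was 0.36 and -0.37, with 31 members positive and 10 negative. The shares of all genes called on that scale are not given here, so those member counts cannot be set against them. NCAPH was highest at 2.40 (SE 0.0589, adjusted p = 3.74e-92), with a change of 1.22 in the presence of glucose and -1.18 in its absence. SPC25 followed at 1.98, PTTG1 at 1.86 and ANLN at 1.75. In 16 members the change was called in opposite directions, higher with glucose and lower without it in 15 and the reverse in CDC25B, whose rise without glucose was called in few settings. These counts were 14 and 5 with library totals alone. Of all genes, 67.9% were called for glutamine with glucose and 72.8% without it under TMM. The share of all genes called in opposite directions was not counted, so 16 members cannot be set against it. KIF18A and ESPL1 at -0.36, KIF2C at -0.32 and CDC25C at -0.24 were negative as well. The CDC25C call was lost when any 1 of 5 libraries was left out (replicate 3 of neither nutrient, replicate 3 of glucose, replicates 1 and 2 of glutamine, and replicate 2 of both), with adjusted p of 0.0519 to 0.104. CENPE (-0.04), CENPA (-0.07) and PRC1 (0.59) did not pass, although PRC1 was called, at 0.85, without replicate 2 of neither nutrient (adjusted p = 0.0163). The difference was called with library totals alone for CENPE at -0.38 (adjusted p = 1.11e-13) and CENPA at -0.41 (adjusted p = 3.49e-09).

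Some members share sequence with other genes, and the labels describe a stranded kit. Whether the counting used the strand, and how it treated reads with several matches, are points not given in the sources used here. In GENCODE 29, 19 of the 47 share exon bases with another gene, 16 of them with a gene on the opposite strand as their largest overlap, and those values are uncertain to that extent. NCAPG, for example, shares 1631 bases with LCORL on the opposite strand, SMC4 1561 with TRIM59, FOXM1 781 with ITFG2 and NCAPD2 486 with MRPL51. PRC1 shares 3181 exon bases with AC068831.7 on the same strand and had 477 counts in all 15 libraries, against 1005 for that gene, so its level is uncertain. CENPA shares 138 bases with SLC35F6 on the same strand. Named copies of 11 members exist, and CDC20P1, with 1565 counts against 76857 for CDC20, was the 1 copy above 1% of its parent.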

How the data were processed

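The values deposited by the authors are raw read counts for each Ensembl gene, not normalized. The submitters' processing notes name the aligner HISAT2 2.1.0, the counter featureCounts of Subread 1.5.1, and the build GRCh38.p12, without settings. Symbols, positions and exon lengths came from GENCODE 29, which held 58275 of the 58395 identifiers. The 15 libraries were fitted together in edgeR 4.0.16 (R 4.3.3, TMM scaling, filterByExpr, robust quasi-likelihood F-test, 10 residual degrees of freedom), with a mean for each medium and 7 two-sided comparisons. P-values were adjusted by Benjamini-Hochberg over the 16889 genes that passed the filter, and a gene was called under 0.05. The fit was tested on simulated counts. Alternatives were DESeq2 1.42.0 (size factors and Wald test), library totals, other low-count filters, the compared media alone, a replicate block and leaving out each library. A test against 1.2-fold and leaving out the 3 libraries with the most genes detected were added after seeing the data. The members, the other lists and the promoter motifs were chosen with earlier results of these data known. Named genes were, for NH4Cl, the 8 largest falls, all not called, and the extremes of each role. For other comparisons they were the 3 largest changes each way, those called against the majority, and those not called.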

Additional observations from a re-analysis of the deposited data

Results flagged for a closer look

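The change with glutamine differed between cells with and without glucose by edgeR's interaction term for 39 members called higher and 5 called lower, beside 36.8% and 38% of all genes. The counts were 31 and 10 with library totals alone, where the median difference over all genes was -0.37. The shares of all genes called on that scale are not given here. The log2 difference was 2.40 for NCAPH, 1.98 for SPC25, 1.86 for PTTG1, 1.75 for ANLN, 1.65 for SPC24, 1.54 for DLGAP5 and 1.51 for CCNB1. It was 1.47 for FOXM1, 1.31 for KIF20A, 1.22 for TPX2, 1.18 for CDC20, 1.06 for SMC2, 0.89 for CCNB2, 0.82 for INCENP and 0.78 for BUB1B. It was negative for CDC25B at -0.24, CDC25C at -0.24, KIF2C at -0.32, ESPL1 at -0.36 and KIF18A at -0.36. With library totals alone, CDC25B became -0.58, CDC25C -0.58, KIF2C -0.65, ESPL1 -0.70, KIF18A -0.70, CCNB2 0.55, INCENP 0.48 and BUB1B 0.45.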

How the results depend on the processing

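With NH4Cl, the count of members that fell was 41 to 42 and of those that rose 0 under the alternatives other than the test against 1.2-fold, which gave 27 lower. Against 1.2-fold, 8 members were lower with glutamine added to glucose, beside 21.3% of all genes. With NH4Cl in place of glutamine, 18 were lower and 1 higher, beside 20% and 18% of all genes. With glucose added to glutamine 0 were lower, beside 18.8%. With glucose against neither, 7 were higher and 17 lower, beside 32.6% and 30% of all genes. With glutamine against neither 0 were higher, beside 28.4%, and in the interaction 3 were lower, beside 32.5%. With library totals alone, 0 members were lower with glucose added to glutamine, 32 were higher and 12 lower with glucose against neither, 6 were higher with glutamine against neither, and 10 were lower in the interaction. Counts of all genes on that scale follow below for the comparisons against neither nutrient. They are not given for glucose added to glutamine or for the interaction. Glutamine against neither gave 0 members higher under DESeq2 size factors, no low-count filter, the replicate block, the DESeq2 Wald test, without the 3 libraries with the most genes detected, and without each library in turn (0 to 0). Leaving out each library in turn gave 24 to 28 lower with glutamine added to glucose and 25 to 31 lower with glucose against neither.

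Direction turned with library totals alone. The members' median with glucose against neither became 0.24, with CDK1 at 0.11, CCNA2 0.14, CCNB2 0.067, AURKA 0.23, PLK1 0.24, BUB1 0.17, BUB1B 0.25, BUB3 0.22, NUF2 0.36, INCENP 0.28, CDCA8 0.38, KIF4A 0.36, KIF20A 0.086, HMMR 0.24, SMC4 0.40, NCAPG 0.36 and PRC1, not called, 0.18. With glutamine against neither, CDC25C became 0.26, TTK 0.078, ESPL1 0.19, CENPF 0.19 and KIF2C 0.0029. In the interaction, TTK became -0.18, BUB3 -0.044, CENPF -0.23, KIF23 -0.10, ECT2 -0.054 and TOP2A -0.0089. The shift of the median of all genes, 0.44, 0.34 and -0.34 in these comparisons, shows the size of the change in scale.

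Over all genes, NH4Cl lowered 2852, or 1834 with no low-count filter. With library totals alone, 10145 genes were higher and 3533 lower with glucose against neither (6735 and 6401 with TMM), and 9531 higher and 3312 lower with glutamine against neither (6251 and 6048). The replicate block left 42 members lower with NH4Cl and moved the call of CDC25B with glutamine against neither. Deviations of libraries with the same number had a median correlation of -0.000938, and in 5 of 15 libraries the highest correlation was with the same number, so the numbers were not taken as pairs. DESeq2 gave no adjusted p for PRC1 with NH4Cl, so it is left out there. PRC1 had only 17 counts in its lowest library, and its level is uncertain because of the shared exon bases described above.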

Other observations

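Regulators of these genes and of the cell cycle were read in the comparison with NH4Cl, in which 16.9% of all genes were lower and 12.7% higher. Of 19 DREAM, MuvB and E2F regulators, 8 fell and 1 rose, with a median log2 change of -0.12. The repressors E2F7 and E2F8 fell by 0.55 (SE 0.0343, adjusted p = 3.50e-34, edgeR) and 0.41 (SE 0.0726, adjusted p = 8.79e-07), and RBBP4, a histone-binding subunit of MuvB, rose by 0.20. Of 7 CDK inhibitor genes, 4 rose and 3 fell, with a median of 0.10. CDKN2B, which encodes p15, rose by 0.44 (SE 0.0434, adjusted p = 1.73e-17) and CDKN1A by 0.19, while CDKN1B fell by 0.13 and CDKN2C by 0.19.

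DNA replication genes act before mitosis. With glutamine added to glucose, 23 of 24 rose and 0 fell by edgeR's quasi-likelihood test, beside 34.2% and 33.7% of all genes, with a median log2 change of 1.00. Of the 47 members, 15 were higher and 27 lower, with a median of -0.11. With NH4Cl in place of glutamine, all 24 were lower, beside 33.4% of all genes, with a median of -1.05. Against neither nutrient all 24 were lower in glucose, beside 37.9% of all genes, with a median of -1.39, whereas with library totals alone 22 were lower and 1 higher, with a median of -0.95. The difference between these lists was not tested.

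Across the 47 members, the log2 change with NH4Cl and the change with glucose added to glutamine, which share no library, had a Pearson's r of 0.152 and a Spearman's rho of 0.128. The changes with glutamine in the presence and in the absence of glucose, which share no library either, had an r of -0.299 and a rho of -0.353. These are descriptions across genes of the same scaling and fit, and genes are not independent replicates.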
